A study of Mus musculus with 19 samples.

Results

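The 10 genes described here encode the Hippo kinase cascade, its upstream regulators and the coactivators that it restrains: Lats1, Lats2, Stk3, Stk4, Taok1, Sav1, Nf2, Wwc1, Yap1 and Wwtr1. They were chosen by name from 22367 annotated protein-coding genes of the mouse. The locus of each gene was its gene body with 20 kb on either side in the mm9 (NCBIM37) assembly, and the data were the ChIP-seq peaks that overlapped these loci. ChIP-seq had been carried out on livers of C57BL/6 background mice that all carried the ROSA26-rtTA-IRES-EGFP allele. Control livers (genotype WT) lacked the tetYAP transgene and came from mice fed doxycycline for 7 days. Livers with tetYAP came from mice fed doxycycline for 3 days (3 d) or 7 days (7 d). Per the study's methods, the tetYAP mice were crossed with mice carrying an albumin-driven Cre recombinase and a floxed rtTA allele. The transgene encoded a constitutively active YAP, and the study describes its induction as taking place in hepatocytes. Which cells of the liver expressed it cannot be read from the peak lists. YAP and TEAD were precipitated from separate tissue, with 3 replicates per group and 4 for TEAD at 7 d, and the replicates of each group were represented by 1 merged list of peaks. Per the methods, fixation was with formaldehyde for TEAD, and with the crosslinker DSG followed by formaldehyde for YAP. The part of this difference in sites called for TEAD and not for YAP was not tested. The TEAD antibody was raised against TEAD4 and, per the methods, recognises other TEAD proteins as well. Peak lists carry no expression values, so the labelled tissue was not checked against marker genes.

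The Hippo pathway limits organ size, and the liver is the tissue in which its loss leads to the best known overgrowth. TAO kinases such as Taok1 activate the kinases encoded by Stk4 (MST1) and Stk3 (MST2), which act with the scaffold protein Sav1 on the kinases Lats1 and Lats2. Nf2 (Merlin) and Wwc1 (KIBRA) bring this cascade to the cell membrane. Lats kinases phosphorylate YAP (Yap1) and its paralogue TAZ (Wwtr1), which keeps both out of the nucleus. Unphosphorylated YAP and TAZ enter the nucleus and reach DNA through TEAD proteins. Binding of YAP and TEAD at the genes of the cascade itself is therefore the question asked of these loci.

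The sequences below carry the main observations: the 3 positions at which YAP was called at these genes, and the strongest TEAD peak at 7 d of 3 genes without a YAP peak. Each is read 5′ to 3′ on the plus strand of mm9 and centred on the summit of the peak. Capitals mark GGAATG, the core of the TEAD motif, or its reverse complement CATTCC, and in the Yap1 sequence the AP-1 motif TGANTCA. All 6 sequences lie outside annotated untranslated regions.
Wwc1 intron, YAP at 7 d, chr11:35733503-35733703: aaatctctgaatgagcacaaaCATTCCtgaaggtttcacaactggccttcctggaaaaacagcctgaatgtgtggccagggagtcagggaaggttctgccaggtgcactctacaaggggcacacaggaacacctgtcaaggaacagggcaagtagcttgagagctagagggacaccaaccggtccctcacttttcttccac
Wwc1 intron, YAP at 7 d, chr11:35777094-35777294: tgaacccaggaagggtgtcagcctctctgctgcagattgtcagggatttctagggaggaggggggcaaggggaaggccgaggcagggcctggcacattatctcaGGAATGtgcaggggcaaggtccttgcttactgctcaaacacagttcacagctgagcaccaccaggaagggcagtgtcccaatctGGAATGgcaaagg
Wwtr1 promoter, YAP at 7 d, chr3:57380015-57380215: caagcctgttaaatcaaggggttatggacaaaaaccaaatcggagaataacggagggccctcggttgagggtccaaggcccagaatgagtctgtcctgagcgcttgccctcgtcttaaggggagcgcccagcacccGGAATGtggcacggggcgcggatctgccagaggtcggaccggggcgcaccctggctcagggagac
Stk4 intron, TEAD at 7 d, chr2:163902913-163903013: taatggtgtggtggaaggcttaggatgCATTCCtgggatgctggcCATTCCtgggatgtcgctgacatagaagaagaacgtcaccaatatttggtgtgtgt
Nf2 intron, TEAD at 7 d, chr11:4738431-4738531: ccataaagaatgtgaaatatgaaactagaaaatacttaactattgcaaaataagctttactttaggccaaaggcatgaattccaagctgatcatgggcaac
Yap1 intron, TEAD at 7 d, chr9:7965803-7965903: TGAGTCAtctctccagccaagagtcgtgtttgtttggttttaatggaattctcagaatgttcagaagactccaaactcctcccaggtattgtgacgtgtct

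Each peak is described by its pileup (how many extended fragments lie over the summit), its enrichment over the local background in fold, and its −log10 p-value. For YAP, the pooled replicates comprised 54661175 tags (WT), 36221830 (3 d) and 34260362 (7 d) and gave 156, 110 and 1478 peaks. For TEAD they comprised 35168765, 55032002 and 38523843 tags and gave 5695, 36446 and 38984 peaks. The lists were not normalised to each other, so strength was compared only as the rank by −log10 p-value within a list, where rank 1 is the strongest peak. The lists differ in length, so a rank is read against the number of peaks in its own list. Pileups of different lists were likewise not normalised and do not by themselves show a change in binding. With 1 list per group there was no spread between replicates, and no difference between groups was tested. Wilson 95% intervals are given for shares and cover counting error only. They treat peaks and sites as independent, although many lie in the same gene.

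YAP was called at 2 of the 10 genes, Wwc1 and Wwtr1, and only in the list of 7 d. No gene had a YAP peak in WT, where 0.139% of all protein-coding genes had at least 1 in a window built the same way. None had a YAP peak at 3 d either, where the share over all genes was 0.192%. At 7 d the 2 of 10 genes (interval 5.67% to 51.0%) stood beside 6.33% of all genes. The windows of the Hippo genes were longer than most, with a median of 124 kb against 55.4 kb over all genes. Per 100 kb of window, the Hippo genes held 0.209 YAP peaks and all genes 0.104, and without Wwc1 the value was 0.0797.

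TEAD peaks lay at 4 of the 10 genes in WT livers (Lats1, Lats2, Wwc1 and Wwtr1), beside 25.3% of all genes. All 10 genes had a TEAD peak at 3 d, beside 65.2% of all genes, and all 10 had a TEAD peak at 7 d, beside 66.5%. These counts depended on the length of the lists. Limited to their strongest 5695 peaks, the length of the WT list, the lists left 3 genes with 10 peaks at 3 d. At 7 d they left 5 genes with 12 peaks. The share of all genes under this limit was not computed, so these counts have no background beside them. The 10 loci held 8 TEAD peaks in WT, 44 at 3 d and 61 at 7 d. Per 100 kb of window these counts came to 0.557, 3.06 and 4.25, and the windows of all genes held 0.417, 2.69 and 2.78. Without Wwc1 the Hippo genes held 0.239, 1.99 and 3.03 TEAD peaks per 100 kb, below the value over all genes in WT and at 3 d and above it at 7 d.

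**Figure D1:**
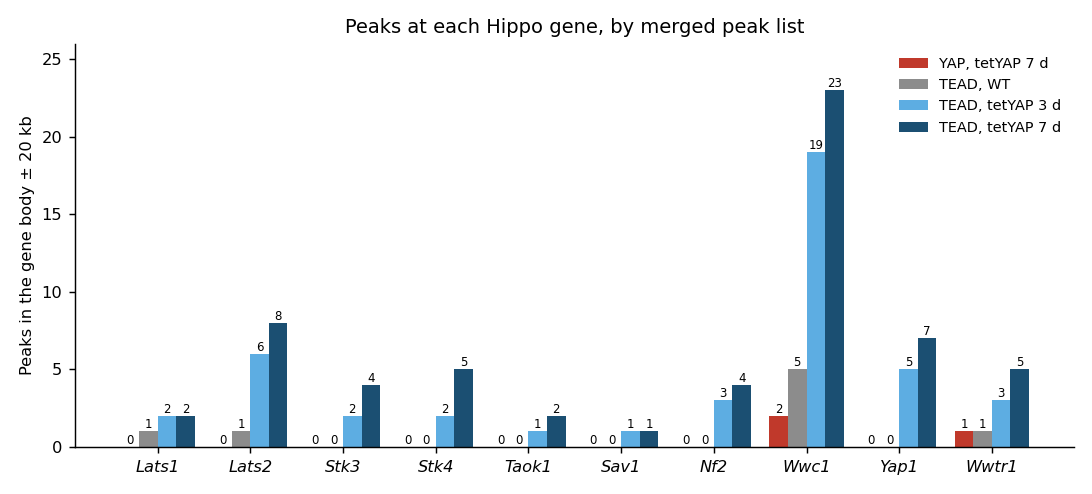
Number of peaks (vertical axis) overlapping the gene body with 20 kb on either side of each Hippo gene, with 1 bar per merged peak list; the YAP lists of WT and 3 d are left out because they held 0 peaks at these genes. Wwc1 had 23 TEAD peaks at 7 d, and the next highest gene, Lats2, had 8.

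Promoters were taken as any annotated start of the gene with 2000 bp before and 1000 bp after it. In WT livers TEAD was called at 2 of the 10 promoters (Lats2 and Wwtr1), beside 8.69% of all genes. At 3 d it was called at 7 of 10 promoters, beside 38.9% of all genes. At 7 d it was called at 7 of 10, beside 37.6%. The same 7 genes were counted at both times, and the 3 without a promoter peak were Lats1, Sav1 and Wwc1. Lats2 in each list, and Stk4 at 3 d, were counted only through starts internal to the gene. A gene with more annotated starts has more chances to be counted. YAP at 7 d was called at 1 of the 10 promoters, that of Wwtr1, beside 1.04% of all genes.

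A window of 20 kb reaches into neighbouring genes. Of the 67 TEAD sites formed by joining overlapping TEAD peaks of the 3 lists, 51 had an annotated start of the Hippo gene itself as the nearest start. A further 8 sites lay within 1000 bp of the start of another gene, among them both sites of Lats1. Some of the sites nearest to other genes are named as such below. Others lay nearest to Pabpc1l and Tomm34 in the Stk4 window, Kcns2 (Stk3), Gm3086 (Sav1), Tm4sf4 (Wwtr1) and Birc3 (Yap1). The counts per gene include all of these sites.

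Wwc1 encodes KIBRA, a scaffold of the upstream arm that binds Lats kinases, and it was the most densely occupied of the 10 genes. Its locus held 5 TEAD peaks in WT, 19 at 3 d and 23 at 7 d, and 2 YAP peaks at 7 d. Only 43 of the 22367 protein-coding genes (0.192%) had at least as many TEAD peaks at 7 d, Wwc1 included. The Wwc1 window is 182 kb long, and per 100 kb of window 786 genes (3.51%) were at least as dense. Wwc1 made up 12.7% of the window length of the 10 genes and held 37.7% of their TEAD peaks at 7 d.

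The strongest site lay in an intron of Wwc1, about 60 kb downstream of the gene start. YAP at 7 d peaked there at position 35733603 of chromosome 11, 60426 bp from the start, with a pileup of 41, a −log10 p-value of 25.33 and 8.95-fold enrichment. This was rank 154 of 1478 YAP peaks, or 187 by pileup. TEAD was already called at the site in WT livers, with a pileup of 100, a fold enrichment of 13.29 and rank 151 of 5695. At 3 d the TEAD pileup was 197 with a fold enrichment of 32.34 and rank 225 of 36446. At 7 d the TEAD pileup was 211 with a fold enrichment of 49.72 and rank 208 of 38984. In each of the 3 TEAD lists it was the strongest peak at any of the 10 genes. The YAP summit lay 69 bp from the TEAD summit of 7 d, and the CATTCC of the printed sequence lay 8 bp from that TEAD summit.

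The other YAP peak of Wwc1, at position 35777194, lay 16835 bp downstream of the gene start, also in an intron. Its YAP pileup was 26, its fold enrichment 5.68 and its −log10 p-value 12.11, which placed it at rank 824 of 1478. TEAD at this site had a pileup of 60 and rank 763 in WT, 131 and rank 940 at 3 d, and 160 and rank 724 at 7 d. The YAP and TEAD summits of 7 d fell on the same base, and its window held GGAATG at 2 positions. Of the 210 TEAD peaks of 7 d at least as strong as the first Wwc1 site, 85.2% overlapped a YAP peak. Of the 733 at least as strong as this one, 66.3% did.

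Further TEAD sites in Wwc1 were strong without a YAP peak. A site 9651 bp from the gene start had a pileup of 36 in WT (rank 3838), 125 at 3 d (rank 1154) and 161 at 7 d (rank 756). Its TEAD window at 7 d held TGANTCA and no GGAATG. The site at 5236 bp also held TGANTCA without GGAATG. Its pileups were 48 in WT (rank 2037), 135 at 3 d (rank 1016) and 133 at 7 d (rank 1423). The site at 3834 bp had no peak in WT, a pileup of 68 at 3 d (rank 4571) and 135 at 7 d (rank 1226). No peak of any list fell in the promoter interval of Wwc1. The WT peak at the far end of the window, with a pileup of 44, lay 80 bp upstream of the start of the neighbouring gene Rars.

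**Figure D2:**
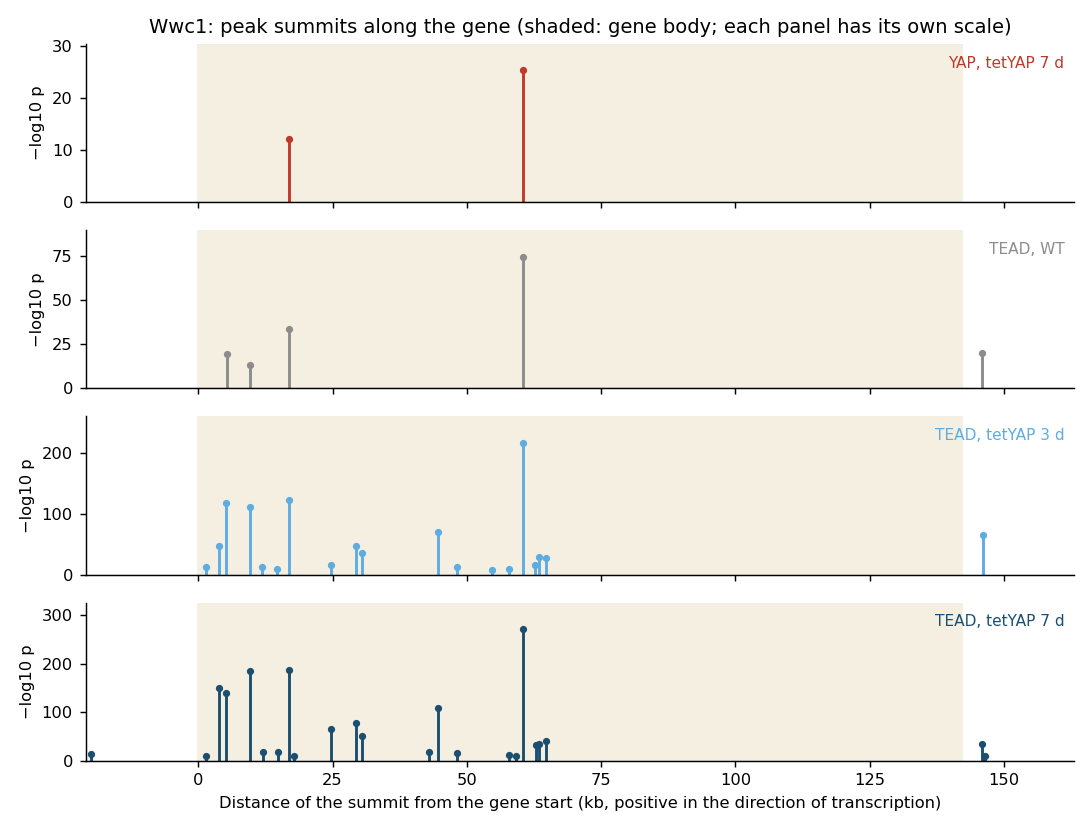
Peak summits along the Wwc1 locus in 4 merged lists, with the distance from the gene start in kb on the horizontal axis and the −log10 p-value on the vertical axis, each panel on its own scale; the shaded area is the gene body. The tallest line of every panel stands at the intronic site about 60 kb from the start, where the 7 d values are 25.33 for YAP and 271.43 for TEAD.

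By the within-list rank of the strongest peak in the 4 lists in which Wwc1 had peaks, the most similar of 1082 genes with peaks in all 4 were Oraov1, Ccnd1 and Vgll4. Likeness was the Euclidean distance between ranks expressed as a percentage of each list. Oraov1 and Ccnd1 overlap the same peaks and had a distance of 0.463, and Vgll4 had a distance of 0.826. At 7 d the Ccnd1 window of 49939 bp held 3 YAP and 10 TEAD peaks. The Vgll4 window of 149367 bp held 3 and 16, and the Wwc1 window of 182128 bp held 2 and 23. Close occupancy was therefore not particular to Wwc1. Ccnd1 encodes cyclin D1, and Vgll4 encodes a TEAD cofactor. The 4 ranks compared for each gene share libraries and are a description.

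Nf2 encodes Merlin, the membrane-associated tumour suppressor at the head of the pathway. It had no YAP peak, and the nearest YAP peak of 7 d lay 361 kb from the gene body. TEAD was not called at Nf2 in WT and had 3 peaks at 3 d and 4 at 7 d. The strongest of 7 d lay in an intron 11058 bp from the gene start, with a pileup of 69, a fold enrichment of 16.26 and rank 5733. No peak of 3 d lay nearer to it than 5036 bp by summit. Its printed sequence held neither GGAATG nor TGANTCA. The site with the next highest value, at 20111 bp, had a pileup of 36 at 3 d (rank 18949) and 50 at 7 d (rank 10473). The promoter site of Nf2 was weak, with a pileup of 24 at 3 d (rank 33330) and 23 at 7 d (rank 31518).

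Among the kinases, Lats2 had the strongest TEAD site. Lats2 phosphorylates YAP and TAZ and is known as a target gene of YAP in other tissues. The TEAD summit of 7 d at position 58364944 of chromosome 14 lay 2 bp upstream of an annotated Lats2 start that is internal to the longest gene model, 12281 bp from the outermost start. Its pileup was 84 in WT (fold 11.17, rank 254), 171 at 3 d (fold 28.07, rank 400) and 175 at 7 d (fold 41.24, rank 523). These ranks stood 4.46%, 1.10% and 1.34% of the way down the lists of WT, 3 d and 7 d. A GGAATG motif lay 9 bp from the summit. The sequence is not printed because 117 of the bases within 100 bp of the summit are annotated as untranslated region. No YAP peak was called there in any list, and the nearest YAP peak of 7 d lay 1794 kb from the gene body. Of the 529 TEAD peaks of 7 d that were at least as strong, 379 (71.6%) overlapped a YAP peak. The other 7 TEAD peaks of Lats2 at 7 d had pileups from 21 to 49. The one nearest to Xpo4, a neighbouring gene, lay 35 bp downstream of the Xpo4 start.

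Lats1, the paralogue of Lats2, had 1 TEAD peak in WT and 2 at 3 d and 7 d. Pileups at Lats1 ranged from 18 to 39, and the WT peak had rank 5654 of 5695. The highest placed peak, at 3 d, stood 56.5% of the way down its list by −log10 p-value and 40.5% by pileup. Both sites lay more than 13 kb upstream of Lats1, 358 bp and 52 bp from the starts of the neighbouring genes Pcmt1 and Nup43. No TEAD or YAP peak was therefore called in the gene body or promoter of Lats1.

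Stk4 and Stk3 encode MST1 and MST2, which phosphorylate Lats kinases. Stk4 had no TEAD peak in WT, 2 at 3 d and 5 at 7 d. The strongest of these lay in an intron 6905 bp from the gene start and was called at 7 d only, with a pileup of 107, a fold enrichment of 25.21 and rank 2317 of 38984. The nearest TEAD summit of 3 d was 3015 bp away. Of the 2342 TEAD peaks of 7 d at least as strong, 84 (3.59%) overlapped no peak of 3 d. CATTCC occurs in the printed sequence at 2 positions, 21 bp and 3 bp from the summit. A further site of 7 d only, 92197 bp from the Stk4 start and beyond its end, had a pileup of 51 and lay nearest to Kcns1. The strongest Stk4 peak of 3 d, with a pileup of 41, lay in an untranslated region of Tomm34 and nearest to the start of Pabpc1l.

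Stk3 had the longest window of the 10 genes, 320 kb, and few peaks. TEAD was not called in WT, was called at 2 sites at 3 d and at 4 at 7 d, with pileups from 21 to 38. Its promoter had a pileup of 30 at 3 d (rank 23402) and 21 at 7 d (rank 34845). Taok1, whose product activates the MST kinases, had 1 TEAD peak at 3 d and 2 at 7 d. The Taok1 promoter had a pileup of 43 at 3 d (rank 15470) and 25 at 7 d (rank 33007), and the other peak lay 384 bp from the start of Abhd15. Sav1, the scaffold that joins MST and Lats kinases, had 1 TEAD peak at 3 d and 1 at 7 d. They were different sites, both in an intron of the neighbouring gene Atl1, with pileups of 29 and 27. The strongest TEAD peaks of Lats1, Stk3, Taok1 and Sav1 stood between 42.4% and 99.3% of the way down their lists.

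**Figure D3:**
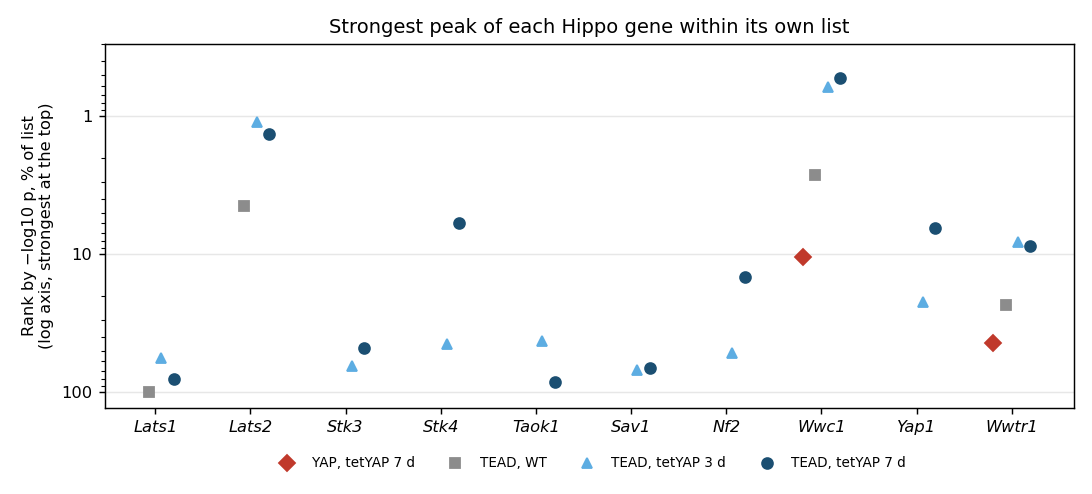
Rank of the strongest peak of each Hippo gene as a percentage of its list (vertical log axis, strongest at the top), with 1 symbol per list; a missing symbol means that no peak was called. The strongest TEAD peaks of 7 d range from 0.534% for Wwc1 and 1.34% for Lats2 to 84.7% for Taok1.

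The coactivators that the cascade restrains were occupied to different extents. Wwtr1, which encodes TAZ, had a YAP peak at its promoter at 7 d, with a summit 283 bp upstream of the gene start. The YAP pileup was 28, the fold enrichment 6.11 and the −log10 p-value 13.70, which gave rank 653 of 1478, or 742 by pileup. TEAD was called at this promoter in WT with a pileup of 50 (fold 6.65, rank 1328). At 3 d its TEAD pileup was 83 (fold 13.62, rank 2966) and at 7 d 64 (fold 15.08, rank 6529). These TEAD ranks stood 23.3%, 8.14% and 16.7% of the way down the lists of WT, 3 d and 7 d. The YAP summit lay within 18 bp of the TEAD summit of each list, and GGAATG stood 38 bp from the YAP summit.

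The strongest TEAD peak of Wwtr1 at 7 d was another site, in an intron 3207 bp downstream of the gene start. It had a pileup of 91, a fold enrichment of 20.76 and rank 3400, with no peak there in WT or at 3 d. Of the 3405 peaks at least as strong, 165 (4.85%) overlapped no peak of 3 d. No GGAATG was found within 100 bases of its summit. The remaining TEAD sites of Wwtr1 had pileups from 24 to 41, and none was called at both 3 d and 7 d.

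Yap1 itself had no YAP peak in its window, and the nearest YAP peak of 7 d lay 78.7 kb from the gene body. TEAD was not called at Yap1 in WT and had 5 peaks at 3 d and 7 at 7 d. The strongest lay in an intron 38743 bp from the outermost start and 32 bp upstream of the start of a shorter annotated transcript. Its pileup was 56 at 3 d (fold 7.67, rank 8103) and 109 at 7 d (fold 21.48, rank 2536). Its printed sequence opens with TGAGTCA, a form of TGANTCA, 47 bp from the summit, and holds no GGAATG. The site at the outermost Yap1 start, 122 bp upstream, had a pileup of 34 at 3 d (rank 18266) and 42 at 7 d (rank 13027). It held GGAATG 16 bp from the summit of 7 d. No summit at Yap1 fell in a coding exon, the part of the gene that a YAP transgene also carries.

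**Figure D4:**
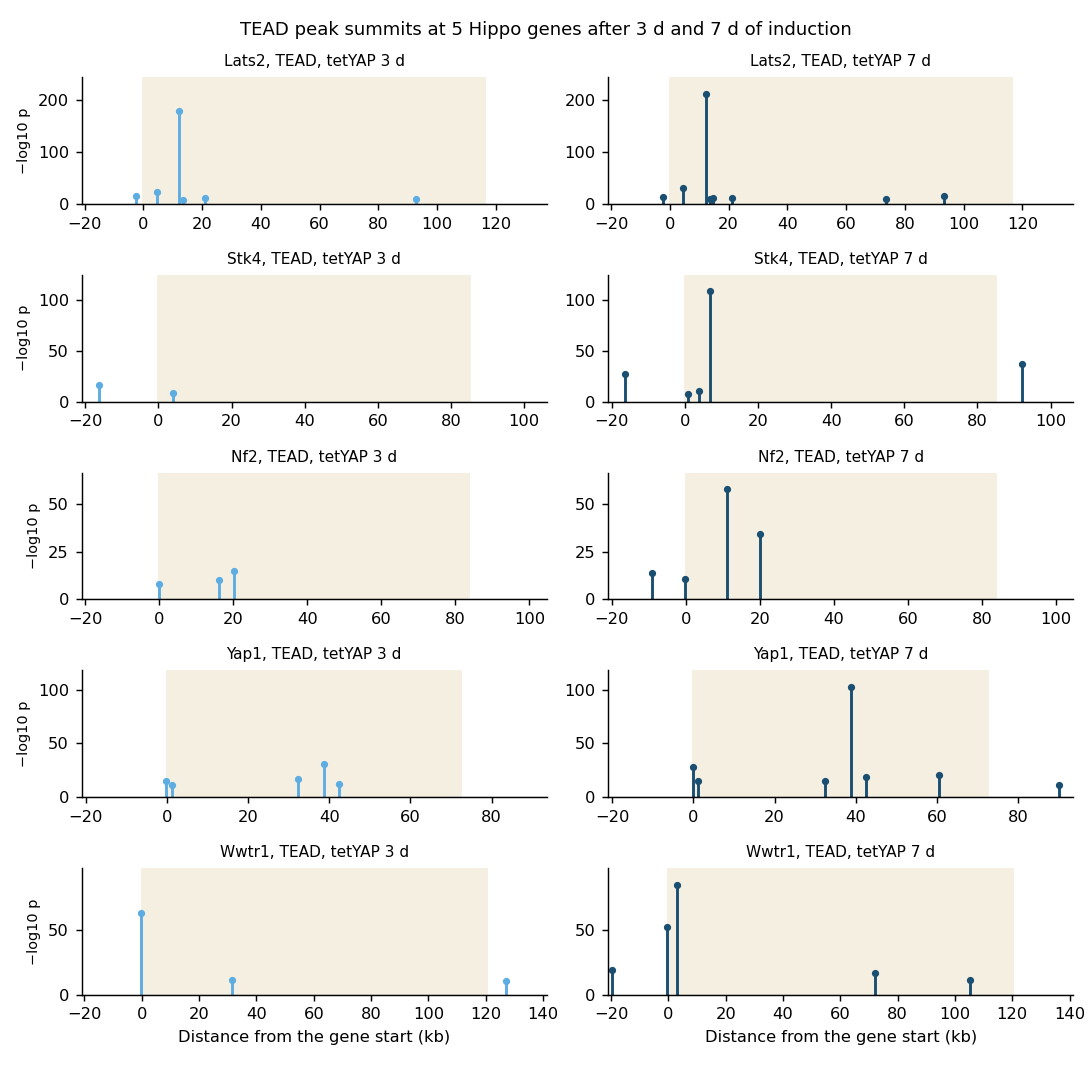
TEAD peak summits at 5 Hippo genes after 3 d (left) and 7 d (right) of doxycycline, with the distance from the gene start in kb on the horizontal axis and the −log10 p-value on the vertical axis, on the same scale for both panels of a gene; the shaded area is the gene body. The tallest 7 d lines of Stk4 (108.15), Nf2 (57.95) and Wwtr1 (84.94) have no line at that position at 3 d, and those of Lats2 and Yap1 do.

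The 67 TEAD sites at the 10 genes were grouped by the lists that held them. All 8 TEAD peaks of WT livers at these genes overlapped peaks of 3 d and of 7 d. Over the whole WT list, 98.4% of peaks overlapped TEAD of 3 d and 95.4% overlapped TEAD of 7 d. The 8 peaks made 8 sites shared by the 3 lists (11.9%, interval 6.18% to 21.8%), beside 11.4% of the 47104 TEAD sites of the genome. Sites of 3 d and 7 d numbered 30 (44.8%, interval 33.5% to 56.6%), beside 46.1% of the genome. Sites of 7 d only numbered 23 (34.3%, interval 24.1% to 46.3%), beside 23.7%. Sites of 3 d only numbered 6 (8.96%, interval 4.17% to 18.2%), beside 18.2%. Without Wwc1, 18 of 43 sites were of 7 d only (41.9%, interval 28.4% to 56.7%). The sites cluster within genes, 24 of them at Wwc1, so they are not independent. Differences from the genome shares were not tested.

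From 3 d to 7 d the number of TEAD peaks at the 10 genes changed by a factor of 1.39, and that of the whole list by 1.07, while the tag count changed by a factor of 0.700. Without Wwc1 the factor at the other 9 genes was 1.52. Sites of 7 d only were found at 9 of the 10 genes, all but Lats1. The share of all genes with such a site was not computed, so this count has no background beside it. The windows of the 10 genes were also longer than most, with a median of 124 kb against 55.4 kb. Most were weak, and 4 of the 23 had a pileup above 50: the intronic and distal sites of Stk4 and the intronic sites of Wwtr1 and Nf2.

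**Figure D5:**
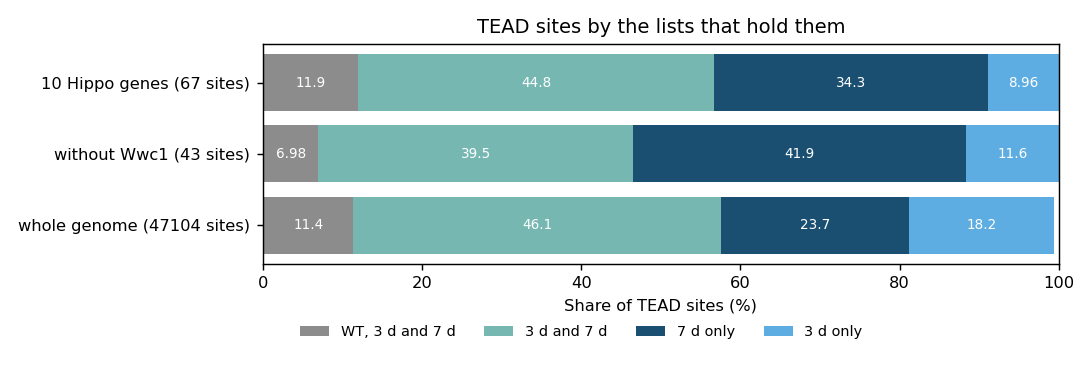
Share of TEAD sites (horizontal axis, %) by the merged lists that hold them, for the 10 Hippo genes, for the same genes without Wwc1 and for the whole genome; the genome bar ends short of 100% because 3 rarer classes that include WT are not drawn. Sites of 7 d only make up 34.3% at the Hippo genes, 41.9% without Wwc1 and 23.7% in the genome.

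All 3 YAP peaks at the Hippo genes overlapped TEAD peaks of WT, 3 d and 7 d (interval for 3 of 3, 43.9% to 100%). Over the whole YAP list of 7 d, 95.2% of peaks overlapped TEAD of 7 d and 54.8% overlapped TEAD of WT. Read from the TEAD side, 3 of the 61 TEAD peaks of 7 d at these genes overlapped a YAP peak (4.92%, interval 1.69% to 13.5%), beside 3.58% of the list. In the same 61 peaks, 8 overlapped TEAD of WT (13.1%, interval 6.80% to 23.8%), beside 14.1% of the list.

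Sequence windows that reach 100 bases to either side of the summit were searched on both strands, and distances of motifs are from their middle to the summit. GGAATG was present in 23 of the 61 TEAD windows of 7 d (37.7%), beside 35.2% of the 38946 windows of that list. It was present in 3 of 3 YAP windows of 7 d, beside 59.0% of 1456. TGANTCA, which reads the same on both strands, was present in 6 of the 61 TEAD windows (9.84%), beside 8.71%. CAAAGTCCA, a form of the HNF4A motif, was present in 0 of 61, beside 1.69%. GGAATG occurred in 4 of the 8 windows of sites shared with WT, in 9 of the 30 of 3 d and 7 d, and in 10 of the 23 of 7 d only. The shares of the same classes over the genome were not computed, so differences between these counts are not read as a trait of the Hippo genes. GGAATG and TGANTCA can share letters where they abut, so their counts are not independent, and a match describes the sequence only.

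Other genes of the pathway were grouped into 3 lists. None of their genes had a YAP peak in WT or at 3 d. Of 17 kinase partners (MOB adaptors, RASSF proteins and kinases that act beside MST), 2 had a YAP peak at 7 d, and 9 had a TEAD peak in WT, 17 at 3 d and 16 at 7 d. At Nuak2, an AMPK-related kinase, YAP had a pileup of 38 and rank 243 by pileup. That of the Tnik window, with a pileup of 32 and rank 631, lay nearest to Slc2a2. Of 15 junction and polarity regulators, 5 had a YAP peak at 7 d (Wwc2, Amotl2, Ptpn14, Pard3 and Ajuba), and 7 had a TEAD peak in WT, 13 at 3 d and 12 at 7 d. Of 11 genes of the STRIPAK phosphatase complex and of YAP turnover, Strn3 had a YAP peak at 7 d, with a pileup of 35 and rank 281, and 4 had a TEAD peak in WT, 10 at 3 d and 10 at 7 d.

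Wwc2, the paralogue of Wwc1, had 3 YAP peaks at 7 d, and the strongest lay 190 bp upstream of its start with a pileup of 55 and rank 34. Amotl2, an angiomotin that holds YAP at junctions, had 5 YAP peaks with pileups from 24 to 49, the strongest at rank 70. Ajuba, a LIM protein that inhibits Lats kinases, had 3 with pileups from 26 to 47, the strongest at rank 86. The strongest YAP peaks of these genes ranked above the strongest of Wwc1, at 154. Pard3, a polarity protein, had 2, the stronger with a pileup of 37 and rank 219, and Ptpn14, a phosphatase that binds YAP, had 1 with a pileup of 24 and rank 1045. All 17 YAP peaks in the windows of these lists overlapped a TEAD peak of 7 d. The lists were chosen by name and their counts are descriptions, read beside the 6.33% of all genes with a YAP peak at 7 d and the 25.3%, 65.2% and 66.5% with a TEAD peak in WT, at 3 d and at 7 d. These counts were not adjusted for window length. Windows were 588 kb at Pard3 and 204 kb at Wwc2 but 56.7 kb at Amotl2 and 49.9 kb at Ajuba. The median over all genes was 55.4 kb.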

How the data were processed

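ChIP-seq for YAP and TEAD was carried out on 19 liver samples in 6 groups, taken from the sample labels. Per the submitters' processing notes and the study's methods, the authors aligned reads to mm9 with BWA 0.6.2, merged replicates, removed duplicates and called peaks with MACS2 2.0.9. Per the file headers, the p-value cutoff was 1e-05, tags were 51 bp long, 1 control of 167176362 tags served all lists, and the fragment length was 250 bp for YAP and 400, 207 and 206 bp for TEAD in WT, at 3 d and at 7 d. A longer setting gives wider peaks. The control came from published data.

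The deposited lists give, for each peak, its position, the pileup (a signal, the coverage at the summit), the fold enrichment (a ratio to the local background) and −log10 p- and q-values from the authors' caller. No value was rescaled here. The q-values were not used.

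Loci were gene bodies with 20 kb on either side, from the GENCODE annotation of NCBIM37, whose chromosome lengths contained every peak. Peaks overlapped a locus or each other when they shared at least 1 bp. Overlapping peaks at a gene were joined to sites, with nearest starts taken at the 7 d summit where there was one. All 10 genes are named, with the strongest peak by −log10 p-value in each list and every YAP peak. Counting was done with Python 3.11.15, pandas 2.3.3 and numpy 2.4.6, and the overlap code was tested on simulated intervals. The genes and lists were chosen with earlier results of these data known. Alternatives changed the window, the peak threshold, the overlap rule, the length of the TEAD lists and the ranking.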

Additional observations from a re-analysis of the deposited data

How the results depend on the processing

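Of 74 values recomputed under another setting, 61 stayed within 1.5 times the reported count or within the counting interval of the reported rank, and 13 did not. The 61 include the YAP counts of WT and 3 d, which were 0 and stayed 0. Under a narrower window or a stricter cutoff a count of 0 could only stay 0, so those values say nothing about stability. With gene bodies alone, 1 gene in place of 2 had a YAP peak at 7 d, since the Wwtr1 peak lies upstream of the gene. When the TEAD lists of 3 d and 7 d were limited to their strongest 5695 peaks, the length of the WT list, 3 genes with 10 peaks were left at 3 d and 5 genes with 12 peaks at 7 d. Under the same limit 2 promoters were left at 3 d and 2 at 7 d, and 5 of the 12 peaks of 7 d overlapped a WT peak. Among the 5813 strongest TEAD peaks of 7 d, 52.0% overlapped a WT peak. The shares of all genes and of all promoters under this limit were not computed. The strongest Wwc1 peak moved from rank 154 to 187 by pileup and 129 by fold in the YAP list of 7 d, to 187 by fold in the TEAD list of 3 d, and to 244 by pileup and 167 by fold in the TEAD list of 7 d. The counts of genes and peaks with TEAD after induction thus depend on how long the lists are.

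No paired analysis was possible because only 1 list of pooled replicates was used per group, and leaving out a replicate was not possible either. A site without a peak was not called at the depth and cutoff of its list. The weakest peak of the YAP list at 7 d had a pileup of 18. The list of TEAD in WT was called with a longer fragment length, and its part in the differences from 3 d and 7 d was not tested.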
